A study of Mus musculus with 6 samples.

Results

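The matrix metalloproteinases Mmp8, Mmp9, Mmp12, Mmp13, Mmp14 and Mmp19 and their tissue inhibitors Timp1, Timp2 and Timp3 were described in mouse macrophages exposed to estrogen metabolites and then to lipopolysaccharide (LPS). The members were taken by gene symbol and make up 9 of the 24016 genes in the expression table. All 9 had reads in every library, and all 9 passed the filter on low values (at least 10 reads in at least 3 libraries), as did 11991 genes in all.

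The cells were bone marrow-derived macrophages, grown from leg bones of C57BL/6N females (8 weeks old) in M-CSF at 20 ng/mL and replated on day 7. The medium of all groups held charcoal-stripped serum and no phenol red, which keeps its own estrogen content low. They received a compound for 1 h, from 1 mM stocks in ethanol diluted 1000-fold (1 µM by this dilution; the labels print the final unit differently), and then LPS, a bacterial cell wall component that activates macrophages, at 100 ng/mL for 6 h. The hydroxyestrogen group held 1 library each of 2OHE2 (2-hydroxyestradiol), 4OHE1 (4-hydroxyestrone) and 2OHE1 (2-hydroxyestrone). The control group held 1 library each of EtOH (the ethanol vehicle), E2 (estradiol) and 16Epi, an estrogen named only by that label. All 6 libraries came from cells given LPS, so every difference below is one within LPS-activated macrophages, and cells without LPS were not analysed here.

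The groups follow the sample titles and the column headers of the files. The treatment field of the labels gives them the other way round, with EtOH, E2 and 16Epi entered as hydroxyestrogen, and was not used. Each compound had 1 library. The replicates of a group are thus different compounds, and nothing states that they came from separate mice. A p-value here sets a difference against the spread between libraries of the same group, not between repeats of a compound. The hydroxyestrogen libraries had 16424057 to 17326353 reads in genes and the control libraries 14734225 to 16059673. The 4OHE1 library stood apart on the leading principal component, which held 30.6% of the variance: it lay at 50.5, while the other 5 libraries lay between -19.4 and -1.51. The 9 macrophage markers were all measured, with summed levels of 7190 to 8443 RPKM (reads scaled by transcript length and library size) in hydroxyestrogen libraries and 8025 to 8441 RPKM in control libraries.

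Matrix metalloproteinases are zinc-dependent proteases that cut collagens, elastin, proteoglycans and many secreted or membrane-bound proteins. Most are secreted as inactive proenzymes whose propeptide must be cut off or displaced, and TIMPs bind the active site and block it. Macrophages make several of them, and their transcription is known to respond to inflammatory signals through AP-1 and NF-kB factors. Transcript levels, measured here, do not report secretion or enzyme activity.

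The levels spanned a wide range, and Mmp13, Mmp12 and Mmp14 led in every library. Averaged over the 6 libraries, Mmp13 lay at the 99.4th percentile of the tested genes by RPKM, Mmp12 at the 97.1st and Mmp14 at the 96.1st. Timp1 and Timp2 followed at the 78.6th and 72.3rd percentiles, then Mmp9 at the 63.0th. Mmp8 and Mmp19 both lay at the 37.7th percentile and Timp3 at the 22.1st. In hydroxyestrogen libraries the ranges of Timp1 and Timp2 overlapped, as did those of Mmp19 and Mmp8. In control libraries only the neighbours Mmp8 and Mmp19 overlapped in this order.

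**Figure D1:**
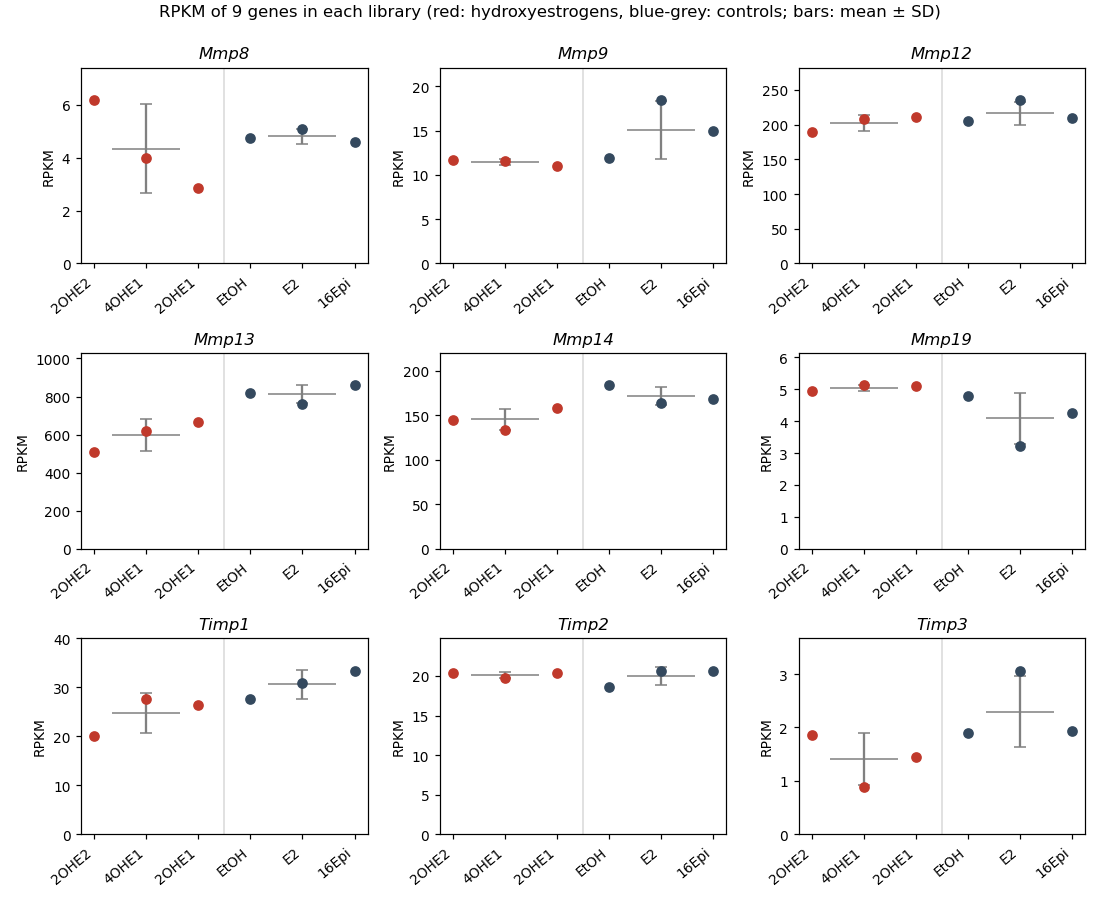
Level of each of the 9 members (RPKM, 1 panel per gene, each panel with its own axis from 0) in the 3 hydroxyestrogen libraries and, to their right, the 3 control libraries; each point is 1 library, and the lines and bars give the mean and SD of the group. Mmp13 lies between 506 and 668 RPKM in hydroxyestrogen libraries, below all 3 control libraries, whereas Mmp19 lies above all 3 and Timp2 overlaps.

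The comparison of the groups asks how the hydroxyestrogens, which carry an added hydroxyl on the aromatic ring, differed from vehicle and from estrogens without it. None of the 9 members passed an adjusted p of 0.05 in limma's moderated test on log2(RPKM + 0.1), fitted over all 11991 genes. Across all genes that rule called 1.88% (1.28% higher and 0.600% lower). At an unadjusted p under 0.05 there were 4 members (Mmp9, Mmp13, Mmp14 and Timp1), against 13.5% of all genes. In 5 of the 9 members the 2 groups did not overlap, 1 higher and 4 lower with hydroxyestrogens, where 20.0% of all genes did not overlap (9.15% higher and 10.8% lower). The median log2 difference of the members was -0.24, and that of all tested genes was -0.02. An exact permutation test of 3 libraries against 3 cannot go below p = 0.1, so single genes were tested in the fit over all genes.

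Mmp13, a collagenase that cuts fibrillar collagen, was the most abundant member. It had 506, 620.2 and 668 RPKM in the 2OHE2, 4OHE1 and 2OHE1 libraries, against 819.8, 762 and 858 RPKM in the EtOH, E2 and 16Epi libraries. Every hydroxyestrogen library lay below every control library, with 2OHE2 the lowest. The means were 598 ± 83.1 RPKM with hydroxyestrogens and 813 ± 48.3 RPKM in controls (SD, n = 3 each), a ratio of 0.736. The log2 difference was -0.45 ± 0.10 (SE; 95% interval -0.68 to -0.23), with an unadjusted p of 0.0013 and an adjusted p of 0.0601 in limma's test, which missed the threshold. The difference was -0.34 without the 2OHE2 library. In 11 of 15 alternative settings it also missed the threshold, with an adjusted p of up to 0.302 by limma, and in 4 it passed. The same difference passed without the 2OHE1 library (adjusted p = 0.0402 by limma). It also passed with a filter of 100 reads (0.0189), in limma-voom on the recovered reads (0.000726, where 3.94% of all genes passed) and on the authors' log2 values (0.00277). In the authors' deposited table Mmp13 was the one member below an adjusted p of 0.05, at 0.000467 and a log2 fold change of -0.42 once turned to hydroxyestrogen minus control; 2.42% of the 24505 genes of the authors' deposited table passed, and 1.03% passed with lower values in hydroxyestrogen libraries. At 25450 to 39772 reads per library, counting error was 0.627% or less.

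Mmp8 is the collagenase best known from neutrophils. It had 6.165, 3.98 and 2.86 RPKM in the 2OHE2, 4OHE1 and 2OHE1 libraries, against 4.72, 5.09 and 4.57 RPKM in the EtOH, E2 and 16Epi libraries. The hydroxyestrogen libraries thus lay on both sides of the controls, with 2OHE2 above all 3 and the others below. Their means were 4.34 ± 1.68 RPKM with hydroxyestrogens and 4.80 ± 0.267 RPKM in controls (SD, n = 3 each), and the log2 difference of -0.21 (95% interval -0.80 to 0.38) did not pass (limma, adjusted p = 0.788). Without the 2OHE1 library it was 0.05, and without 2OHE2 it was -0.49. The coefficient of variation was 38.8% among hydroxyestrogen libraries and 5.56% among controls. Mmp8 had 129 to 284 reads, for a counting error of up to 8.80%. Summed neutrophil markers lay at 33.6 to 39.8 RPKM with hydroxyestrogens and 37.4 to 51.6 RPKM in controls. Of 12 such markers 11 were in the table and 5 were tested, none of which passed, with a median log2 difference of -0.72. S100a8 averaged 28.0 RPKM with hydroxyestrogens and 28.5 RPKM in controls. Csf3r, the G-CSF receptor, averaged 3.31 and 5.31 RPKM in the same order (log2 difference -0.72, unadjusted p = 0.0200 and adjusted p = 0.257 by limma). S100a9 differed by -1.87 (limma, adjusted p = 0.415, at most 62 reads in a library). Camp differed by -1.14 (limma, adjusted p = 0.543, at most 34 reads) and Ngp by -0.18 (0.932, at most 37 reads). The granule genes Elane and Mpo were at 0 in all hydroxyestrogen libraries and under 10 reads in each control library, and Retnlg was at 0 throughout. Prtn3 and Ltf, not tested, went the other way, at 0.430 and 0.0867 RPKM with hydroxyestrogens. Their control means were 0.350 and 0.0713 RPKM, with at most 16 and 14 reads in a library. Cxcr2 had reads in the 4OHE1 library alone (4). The part of these cells in the Mmp8 values was not tested.

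Mmp9, a gelatinase that degrades denatured collagen and basement membrane collagen, had 11.6, 11.6 and 11.05 RPKM in the 2OHE2, 4OHE1 and 2OHE1 libraries. The EtOH, E2 and 16Epi libraries had 11.9, 18.4 and 15.0 RPKM. The hydroxyestrogen libraries lay close together and below all controls, but the EtOH library was only slightly above them. Among the controls, EtOH and E2 lay about equally far below and above the mean. The means were 11.4 ± 0.332 RPKM with hydroxyestrogens and 15.1 ± 3.27 RPKM in controls (SD, n = 3 each). The log2 difference of -0.38 ± 0.16 (SE; 95% interval -0.73 to -0.02) did not pass adjustment (limma, adjusted p = 0.339), and was -0.22 without the E2 library. Markers of osteoclasts, a macrophage relative rich in Mmp9, summed to 45.4 to 50.0 RPKM with hydroxyestrogens and 46.4 to 59.2 RPKM in controls. None of the 6 tested of 8 passed. Oscar was not measured (at most 1 read in a library), and Calcr had reads in the EtOH library alone (12). The part of these cells in the Mmp9 values was not tested.

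Mmp12, the macrophage elastase, had 189, 208 and 211 RPKM in the 2OHE2, 4OHE1 and 2OHE1 libraries, against 205, 235 and 209 RPKM in the EtOH, E2 and 16Epi libraries. The groups overlapped, and only 2OHE2 lay below all controls. Its means were 202.5 ± 11.6 RPKM with hydroxyestrogens and 216 ± 16.3 RPKM in controls (SD, n = 3 each). The log2 difference was -0.09, with an interval of -0.27 to 0.08 (limma, adjusted p = 0.640). It was -0.03 without the E2 library and -0.05 without 2OHE2.

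Mmp14 is the membrane-anchored enzyme MT1-MMP, which cuts collagen at the cell surface and activates proMMP2 and proMMP13. It had 145, 134 and 158 RPKM in the 2OHE2, 4OHE1 and 2OHE1 libraries, against 183, 163 and 168 RPKM in the EtOH, E2 and 16Epi libraries. All 3 hydroxyestrogen libraries were below all 3 controls, although 2OHE1 and E2 were close. The means were 145 ± 12.0 RPKM with hydroxyestrogens and 172 ± 10.4 RPKM in controls (SD, n = 3 each), and the log2 difference was -0.24 ± 0.08 (SE; 95% interval -0.42 to -0.06; limma, adjusted p = 0.220). In the authors' deposited table its adjusted p was 0.0966, for an entry of 3789 bases where the RPKM entry has 2585.

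Mmp19, a secreted protease of basement membrane components, was the one member without overlap in the upward direction. It had 4.935, 5.12 and 5.09 RPKM in the 2OHE2, 4OHE1 and 2OHE1 libraries, against 4.79, 3.22 and 4.25 RPKM in the EtOH, E2 and 16Epi libraries. The hydroxyestrogen libraries were tightly grouped just above EtOH, and E2 was the lowest of all. The means were 5.05 ± 0.0987 RPKM with hydroxyestrogens and 4.09 ± 0.801 RPKM in controls (SD, n = 3 each), and the log2 difference of 0.32 (95% interval -0.12 to 0.75) did not pass (limma, adjusted p = 0.526) and was 0.16 without the E2 library. Its 3′ end overlaps Tmem198b on the other strand, a gene with up to 184 reads in a library beside the 179 to 330 of Mmp19. The sources used here do not say if reads were counted by strand, so reads of the overlap may be shared.

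Timp1, an inducible and secreted inhibitor of most MMPs, had 20.1, 27.7 and 26.4 RPKM in the 2OHE2, 4OHE1 and 2OHE1 libraries. The EtOH, E2 and 16Epi libraries had 27.5, 31.0 and 33.4 RPKM. The groups overlapped, because 4OHE1 was just above EtOH, and 2OHE2 was the lowest of the 6. The means were 24.7 ± 4.08 RPKM with hydroxyestrogens and 30.6 ± 2.94 RPKM in controls (SD, n = 3 each), with a log2 difference of -0.32 ± 0.13 (SE; 95% interval -0.62 to -0.02; limma, adjusted p = 0.344). Without the 2OHE2 library it was -0.18. Timp1 lies within Syn1, which is on the other strand and had at most 57 reads in a library.

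Timp2, which inhibits MMPs and also takes part in proMMP2 activation by Mmp14, differed least between the groups. Its levels were 20.4, 19.7 and 20.4 RPKM in the 2OHE2, 4OHE1 and 2OHE1 libraries, against 18.6, 20.7 and 20.6 RPKM in the EtOH, E2 and 16Epi libraries. The groups overlapped, and the log2 difference was 0.01 with an interval of -0.20 to 0.23 (limma, adjusted p = 0.973), and -0.03 without the EtOH library.

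Timp3, the inhibitor that binds to the extracellular matrix and also inhibits Adam17, was the least abundant member. It had 1.86, 0.888 and 1.45 RPKM in the 2OHE2, 4OHE1 and 2OHE1 libraries, against 1.90, 3.06 and 1.93 RPKM in the EtOH, E2 and 16Epi libraries. The groups did not overlap, but 2OHE2 and EtOH nearly met, and the extremes were 4OHE1 and E2. The means were 1.40 ± 0.487 RPKM with hydroxyestrogens and 2.30 ± 0.662 RPKM in controls (SD, n = 3 each), and the log2 difference of -0.70 ± 0.33 (SE; 95% interval -1.44 to 0.04) did not pass (limma, adjusted p = 0.399) and was -0.43 without the 4OHE1 library. It rested on 82 to 244 reads, with a counting error of up to 11.04%. Fibroblast and stromal markers, whose cells are rich in Timp3, summed to 37.5 to 43.2 RPKM with hydroxyestrogens and 43.0 to 50.4 RPKM in controls. None of the 7 tested of 10 passed, and 3 of the 7 had a positive difference. Lum was not measured (at most 4 reads in a library), and Thy1 had reads in the 4OHE1 library alone (11). Acta2 was the most abundant of them, at 23.0 RPKM with hydroxyestrogens and 27.8 RPKM in controls. The part of these cells in the Timp3 values was not tested. In bulk libraries, fewer cells of a type and less RNA per cell cannot be told apart.

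**Figure D2:**
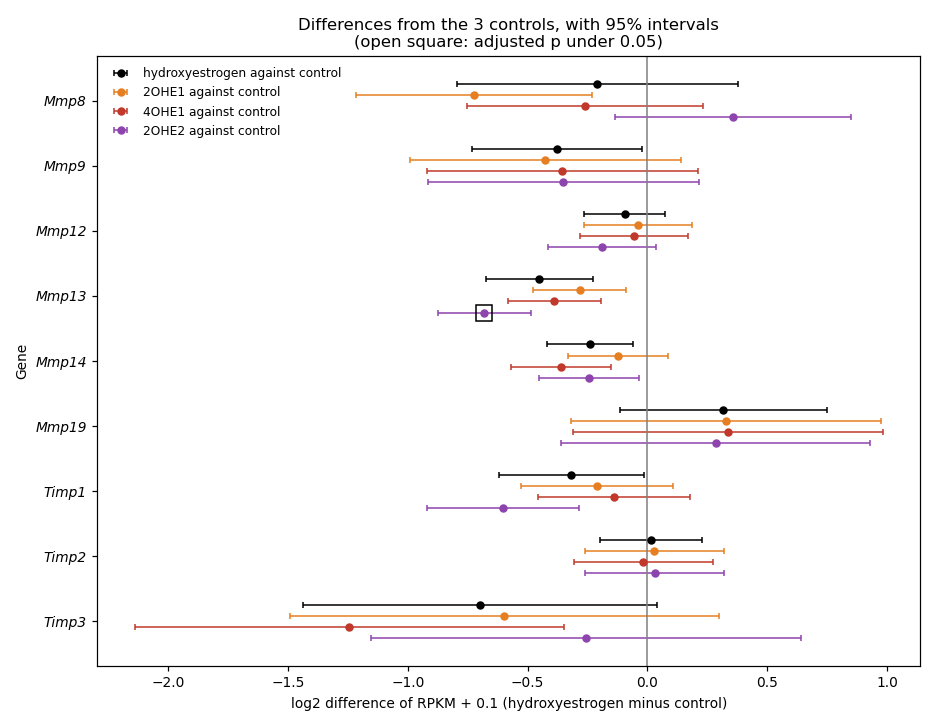
Log2 difference from control of each member (horizontal axis) for each hydroxyestrogen and for the group, with 95% intervals from limma; the vertical line marks no difference and the open square an adjusted p under 0.05. Mmp13 lies left of the line in all 4 estimates, at -0.68 for 2OHE2, while all 4 Timp2 intervals cross it.

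Each hydroxyestrogen was also set against all 3 controls. In these fits a compound is 1 library, and that library is assumed to vary like the controls. The scatter of well-expressed genes around the rest of their group (median, log2) was 0.126 to 0.154 in hydroxyestrogen libraries and 0.0843 to 0.0925 in control libraries, so these p-values may be too small. The share of all genes called was 0.542% for 2OHE1, 3.69% for 4OHE1 and 0.609% for 2OHE2. The 3 comparisons share their control libraries.

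With 2OHE2, Mmp13 fell to 0.623 of the control mean, a log2 difference of -0.68 ± 0.08 (SE; 95% interval -0.88 to -0.49; limma, adjusted p = 0.0306). It was the only member of 9 called with this compound, where 0.309% of all genes were called lower (limma-voom called the same member and 4.14% of all genes); 3 members had an unadjusted p under 0.05, against 13.8% of all genes. The call was lost without the E2 control library (adjusted p = 0.110), with no filter (0.1503) and with no variance trend (0.301). Timp1 had the next lowest p with 2OHE2, at 0.655 of the control mean and a log2 difference of -0.60 (95% interval -0.92 to -0.29; limma, adjusted p = 0.114), and passed without the EtOH library (0.0473). Mmp8 was above all controls with 2OHE2, by 0.36 on the log2 scale (95% interval -0.14 to 0.85; limma, adjusted p = 0.488). Over the members, the median log2 difference was -0.24, against 0.04 over all genes.

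With 4OHE1, none of the 9 members passed, and 3 (Mmp13, Mmp14 and Timp3) had an unadjusted p under 0.05 in limma, against 23.9% of all genes. The same 3 passed in limma-voom, which called 14.0% of all genes here. Mmp13 had a log2 difference of -0.39 (95% interval -0.58 to -0.19; adjusted p = 0.0549), Mmp14 one of -0.36 (-0.57 to -0.15; 0.0773) and Timp3 one of -1.24 (-2.14 to -0.35; 0.115). The level of Timp3 was 0.387 of the control mean. The members' median was -0.26, against -0.06 over all genes.

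With 2OHE1, none of the 9 passed in limma, 2 (Mmp8 and Mmp13) had an unadjusted p under 0.05, against 14.2% of all genes, and limma-voom called 1, Mmp13, and 3.34% of all genes. Mmp13 had a log2 difference of -0.28 (95% interval -0.48 to -0.09; limma, adjusted p = 0.206). Mmp8 stood at 0.596 of the control mean, with a difference of -0.72 (-1.22 to -0.23; adjusted p = 0.202). The members' median was -0.21, against -0.02 over all genes. Timp2 stayed within the control range for all 3 compounds, and Mmp12 did for 4OHE1 and 2OHE1. Mmp9 was 0.731 to 0.771 of the control mean and Mmp19 1.21 to 1.25 times it in the 3 libraries.

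The 4 pairs of related compounds compared here were given by the same protocol and for the same time, and in none of them did a member pass the threshold in limma. The share of all genes called was 0.0417% for 4OHE1 against 2OHE1, 0.0417% for 2OHE2 against 2OHE1, 0.0751% for 2OHE2 against 4OHE1 and 0.0667% for 2OHE2 against E2. The members with an unadjusted p under 0.05 numbered 0, 3, 3 and 4 in that order (15.0%, 10.6%, 15.8% and 5.90% of all genes), and limma-voom called 0, 1, 1 and 1, each time Mmp13, where it called 2.29%, 0.125%, 2.14% and 0.267% of all genes. P-values were adjusted over all genes within a pair, not over the pairs.

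Moving the added hydroxyl from one carbon of the aromatic ring to another, as between 4OHE1 and 2OHE1, went with a Mmp13 log2 difference of -0.11 (95% interval -0.35 to 0.13; limma, adjusted p = 0.638). For Mmp14 the difference was -0.24 (-0.49 to 0.02; adjusted p = 0.359), and for Mmp8 0.46 (-0.14 to 1.07; adjusted p = 0.430). These intervals do not show that the 2 compounds act alike.

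2OHE2 and 2OHE1 differ in the five-membered ring, where estradiol has a hydroxyl and estrone a ketone. Mmp8 was at 6.165 RPKM with 2OHE2 and 2.86 RPKM with 2OHE1, a log2 difference of 1.08 (95% interval 0.48 to 1.69; limma, adjusted p = 0.322). Mmp13 was at 506 RPKM with 2OHE2 and 668 RPKM with 2OHE1, a difference of -0.40 (-0.64 to -0.16; adjusted p = 0.334). Timp1 differed by -0.39 (-0.78 to -0.0049; adjusted p = 0.469).

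2OHE2 against 4OHE1, which differ at both positions, gave -0.29 for Mmp13 (95% interval -0.53 to -0.05; limma, adjusted p = 0.262), -0.46 for Timp1 (-0.85 to -0.07; 0.265) and 0.62 for Mmp8 (0.01 to 1.22; 0.309). Timp3 differed by 0.99 on the log2 scale (-0.11 to 2.08; adjusted p = 0.353).

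2OHE2 and E2 share the estradiol skeleton and differ by the added hydroxyl. Mmp13 differed by -0.59 between them (95% interval -0.88 to -0.30; limma, adjusted p = 0.307) and Timp1 by -0.62 (-1.08 to -0.17; 0.608). For Mmp9 the difference was -0.66 (-1.22 to -0.09; adjusted p = 0.745), and for Mmp12 -0.31 (-0.59 to -0.04; 0.764). This pair used a fit in which 4OHE1 with 2OHE1, and EtOH with 16Epi, supplied the spread.

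**Figure D3:**
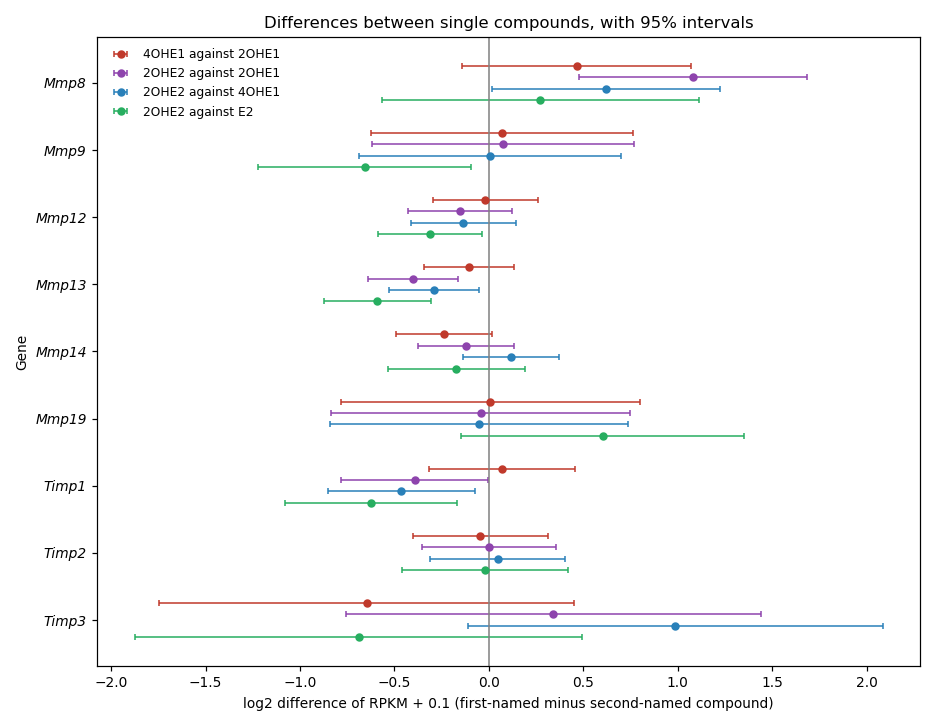
Log2 difference between 2 compounds (horizontal axis) of each member, in the 4 pairs, with 95% intervals from limma; the vertical line marks no difference. Mmp8 lies farthest right, at 1.08 for 2OHE2 against 2OHE1, and Mmp13 lies left of the line in all 4 pairs.

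The balance of proteases and inhibitors was described by summed levels, which Mmp13 dominates. The 6 MMPs summed to 863, 982 and 1055 RPKM in the 2OHE2, 4OHE1 and 2OHE1 libraries, against 1229, 1187 and 1260 RPKM in the EtOH, E2 and 16Epi libraries. The 3 TIMPs summed to 42.3, 48.3 and 48.2 RPKM with hydroxyestrogens, against 48.1, 54.7 and 55.9 RPKM in controls. The MMP sums did not overlap between the groups and the TIMP sums did. The ratio of the 2 sums was 20.4, 20.3 and 21.9 with hydroxyestrogens, against 25.6, 21.7 and 22.5 in controls, and overlapped. Mmp13 made up 58.7% to 63.3% of the MMP sum with hydroxyestrogens and 64.2% to 68.1% in controls.

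Mmp13, Mmp12 and Mmp8 lie in a run of MMP genes on chromosome 9 (mm9, the build of the files). Mmp13 is at chr9:7272514-7283333, Mmp12 at chr9:7347374-7360461 and Mmp8 at chr9:7558429-7568486, all on the plus strand. Among the 10 genes of the run, expression was concentrated at one end. Averaged over the 6 libraries, Mmp13 had 706 RPKM, Mmp12 209.5 RPKM, Mmp8 4.57 RPKM, and Mmp10, a stromelysin, 4.33 RPKM. Mmp3, the other stromelysin, had 0.941 RPKM, and Mmp27 had 0.383 RPKM. Mmp1a, Mmp1b and Mmp7 had at most 13 reads in any library, and Mmp20, the enamel protease, had none. The other members lie elsewhere. Mmp9 is at chr2:164773719-164781349, Mmp14 at chr14:55050441-55060095, Mmp19 at chr10:128227966-128237880, Timp1 at chrX:20448160-20451863, Timp2 at chr11:118162375-118216725 and Timp3 at chr10:85763157-85812250.

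**Figure D4:**
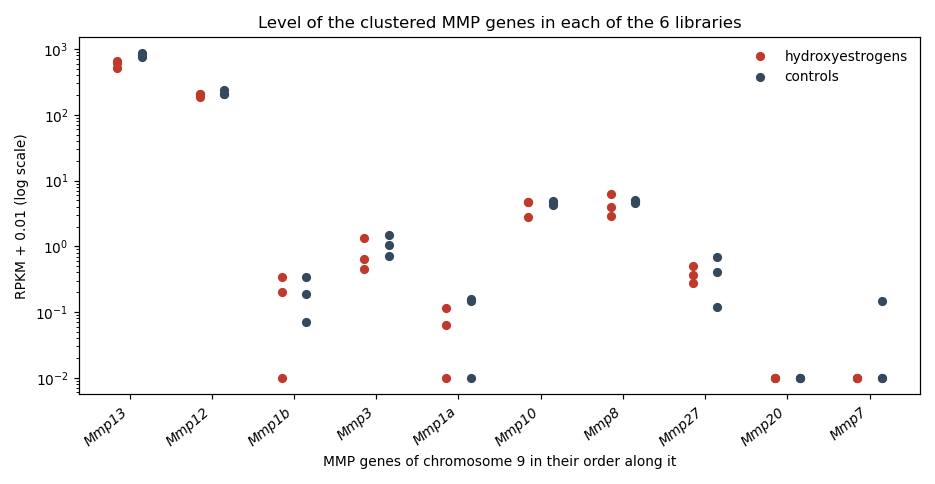
Level (RPKM + 0.01, log axis) of the 10 MMP genes of the chromosome 9 run, in their order along the chromosome, in the 3 hydroxyestrogen and 3 control libraries; each point is 1 library. Mmp13 and Mmp12 exceed 100 RPKM and all others stay below 10 RPKM, with Mmp20 at 0 reads.

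The promoters of the 3 most abundant members are shown to set the 2 windows that hold an AP-1 sequence beside one that does not. The other of 2 starts of Mmp12, not shown, holds none. They are the 250 bases before the RefSeq start on GRCm38.p6, a build other than that of the files, and all are on the plus strand. Capitals mark the AP-1 sequence TGANTCA, which was searched on both strands.
Mmp13, chr9:7272264-7272513: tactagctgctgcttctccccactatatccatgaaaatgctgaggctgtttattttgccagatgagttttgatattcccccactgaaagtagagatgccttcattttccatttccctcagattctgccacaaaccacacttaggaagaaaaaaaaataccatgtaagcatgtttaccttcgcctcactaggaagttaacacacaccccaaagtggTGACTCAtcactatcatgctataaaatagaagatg
Mmp12, second start, chr9:7347124-7347373: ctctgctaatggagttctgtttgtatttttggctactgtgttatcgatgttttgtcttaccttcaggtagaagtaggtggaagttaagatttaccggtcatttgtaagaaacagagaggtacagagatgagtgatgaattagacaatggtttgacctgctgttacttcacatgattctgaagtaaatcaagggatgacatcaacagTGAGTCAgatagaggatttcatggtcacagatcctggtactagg
Mmp14, chr14:54431348-54431597: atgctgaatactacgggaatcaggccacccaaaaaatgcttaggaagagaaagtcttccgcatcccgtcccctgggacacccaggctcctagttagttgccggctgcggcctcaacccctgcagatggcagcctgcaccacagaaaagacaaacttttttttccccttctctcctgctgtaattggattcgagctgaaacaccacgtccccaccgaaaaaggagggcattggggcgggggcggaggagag
The match lies 35 to 29 bases before the start in Mmp13 and 44 to 38 bases before the second start of Mmp12. Of 32851 mouse promoters in the same window, 6.75% hold such a sequence. A TATAAA box lies 16 to 11 bases before the Mmp13 start, a sequence that 12.4% of promoters hold. RefSeq promoters were matched for 7 of the 9 members, all but Mmp9 and Mmp19, with 8 starts. An antioxidant response element core, TGACNNNGC, was found in the window of Timp2 alone among these, 152 to 144 bases before its start, and in 10.2% of all promoters. The matches are letters in a window, and binding was not measured.

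In the other gene lists of the pathway, Cd44 and Ctsc passed the test. Of 18 other family genes (the remaining MMPs and Timp4), 7 were tested and none passed (limma, 0 at an unadjusted p under 0.05, where 13.5% of all genes were). Mmp2, the gelatinase that Mmp14 activates, averaged 1.07 ± 0.217 RPKM with hydroxyestrogens and 1.62 ± 0.252 RPKM in controls (SD, n = 3 each; limma, adjusted p = 0.435). Mmp25, a membrane-anchored MMP of leukocytes, had a log2 difference of -0.31 (adjusted p = 0.640), which was -0.09 without the 2OHE1 library and -0.50 without 2OHE2. The list's median difference was -0.22.

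Among 14 activators, partners and inhibitors of MMPs, 10 were tested and 1 fell, beside 0.600% of all genes. Cd44, a hyaluronan receptor known to hold Mmp9 and Mmp14 at the cell surface, had 228, 213 and 244 RPKM in the 2OHE2, 4OHE1 and 2OHE1 libraries, against 287, 287 and 308 RPKM in the EtOH, E2 and 16Epi libraries. All hydroxyestrogen libraries were below all controls. The log2 difference was -0.37 ± 0.07 (SE; limma, adjusted p = 0.0317). The call held without the 2OHE1 library and was lost on leaving out any other single library, with adjusted p of 0.0674 to 0.180, and with no filter (0.0880) or no variance trend (0.253). In the authors' deposited table the adjusted p of Cd44 was 9.26e-06, where 2.42% of all genes passed. Over the list the median was -0.08, and 3 of the 10 had an unadjusted p under 0.05, against 13.5% of all genes. Limma-voom called 2 of the list and 3.94% of all genes. Itgav had a difference of -0.45 (limma, adjusted p = 0.173), and an adjusted p of 0.00106 in the authors' deposited table.

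Of 14 cathepsins and matrix glycosidases, which degrade matrix mainly in lysosomes, 13 were tested and 1 fell, where 0.600% of all genes fell. Ctsc, the dipeptidyl peptidase that activates granule serine proteases, had 112, 118 and 120.1 RPKM in the 2OHE2, 4OHE1 and 2OHE1 libraries, against 164, 146 and 159 RPKM in the EtOH, E2 and 16Epi libraries. The groups did not overlap, and the log2 difference was -0.42 ± 0.07 (SE; limma, adjusted p = 0.0163). This call was lost without the 2OHE2 library (adjusted p = 0.0510), without EtOH (0.0879) and without 16Epi (0.104), and with no filter (0.0517) or no variance trend (0.204). In the authors' deposited table the adjusted p of Ctsc was 1.92e-05, where 2.42% of all genes passed. The list's median was 0.05, and 9 of its 13 tested members had a positive difference.

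None of the 11 tested of 20 ADAM and ADAMTS proteases passed (limma; 1 at an unadjusted p under 0.05, where 13.5% of all genes were; median log2 difference -0.12). Adam9, a membrane sheddase, had a difference of -0.22 (adjusted p = 0.341), and Adamts4, an aggrecanase, one of -0.54 (0.380), which was -0.29 without the 2OHE2 library. Of 26 matrix proteins and proteoglycans 22 were tested and none passed, 5 having an unadjusted p under 0.05, against the same 13.5% (median -0.16). Sdc4, a cell-surface heparan sulfate proteoglycan, had a difference of -0.26 (adjusted p = 0.192) and Lamc1, a laminin chain, one of 0.28 (0.244). Vcan differed by -0.43 (limma, adjusted p = 0.2503) and Thbs1 by -0.46 (0.245). In the authors' deposited table the adjusted p was 0.01002 for Sdc4, 0.0102 for Lamc1, 0.0179 for Vcan and 0.0191 for Thbs1. No other gene of this list passed there, where 2.42% of all genes did. Limma-voom called 3 of this list and 3.94% of all genes. Of 22 transcription factors known to act on MMP promoters 21 were tested and none passed, with 4 at an unadjusted p under 0.05, against the same 13.5% (median -0.05). Of these 4, Fosl1 had a difference of 0.54 (limma, adjusted p = 0.257) and Fosl2 one of -0.31 (0.354). Nfkb1, an NF-kB subunit, had a difference of -0.27 (limma, adjusted p = 0.130), which passed in limma-voom, and Stat3, which acts below cytokine receptors, one of -0.24 (0.246). In the authors' deposited table Nfkb1 had an adjusted p of 0.00546 and Stat3 one of 0.0642.

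The genes whose levels ran most like Mmp13 over the 6 libraries were Cst7 (Pearson r = 0.993), Evi2a (0.990) and Prr5l (0.990), among 10613 genes compared. Those most like Mmp19 were Nsmf (0.986), Arl6ip1 (0.980) and Ppp1cc (0.971). Among the members, Mmp13 and Timp1 had r = 0.885 and Mmp9 and Mmp19 had r = -0.979. These values describe 6 libraries that share the split into groups, and the best of many genes is high by selection.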

How the data were processed

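RNA-seq of 6 libraries of LPS-treated mouse macrophages was analysed from 2 tables, whose per-sample columns were all mapped (0 unused). The deposited RPKM values were made by the authors with HOMER (exons, mm9, 1 entry per gene), per the file headers; STAR, HOMER, DESeq2 and edgeR are named in the submitters' processing notes. A second table holds the authors' log2 expression values, log2 fold changes and p-values; its fold change is positive where controls are higher, the opposite of its header, and was turned round. The authors' entries of Mmp12, Mmp19 and Timp1 are other transcripts than those of the RPKM values, and that of Mmp14 differs in length. For these genes the 2 sets of values may rest on different reads. If reads were counted by strand is not stated.

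RPKM × length × total tags gave whole reads (within 0.1) for 100% of the 1873 to 2607 values checked per library. The planned test for deposited counts could not be used, so log2(RPKM + 0.1) was tested with limma 3.58.1 (trend) in R 4.3.3 on the 11991 genes that reached 10 reads in 3 or more libraries. P-values were adjusted by Benjamini-Hochberg at 0.05. The group fit had 4 residual degrees of freedom and the compound fits 2. It called 225 genes, and limma-voom on the recovered reads called 473. A simulation with known changes tested the scripts. Genes outside the members were named by rule: those called in a pathway list, otherwise the 2 with the smallest p, and the 3 most correlated with the member of smallest p in each direction. Some marker and list genes are given outside this rule. The members and lists were chosen with earlier results of these data known. Counting errors cover sampling of reads only.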

Additional observations from a re-analysis of the deposited data

How the results depend on the processing

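The main limits are 1 library per compound, 3 libraries per group and low read numbers of Timp3, Mmp8 and Mmp19. Over 918 recomputed differences of the 9 members (72 comparisons), 866 kept their direction and side of the threshold, 3 lost and 23 gained a call, and 26 changed sign. The cause of these changes was not tested. Many of the 918 could not change direction by construction. Other filters, no variance trend, the replicate block, and leaving out a library outside the comparison alter only the p-value of a difference. The 866 is therefore no measure of how stable the directions are. Members called with hydroxyestrogens as a group (0) became 1 with at least 100 reads (3.82% of all genes called), 1 in limma-voom and 1 on the authors' log2 values (4.13%), and 0 to 1 on leaving out single libraries. For 2OHE1 (0) it was 1 in limma-voom and 1 on the authors' values (4.62%). For 4OHE1 (0) it was 3 with 100 reads (9.59%), 3 in limma-voom and 3 on the authors' values (14.4%). For 2OHE2 (1) it was 0 with no filter, 0 with no variance trend, 2 on the authors' values (4.84%) and 0 to 2 without single libraries. For 2OHE2 against 2OHE1, 4OHE1 and E2 (0 each) it was 1 in limma-voom and 1 on the authors' values in each pair (0.837%, 3.62% and 0.325%). Genes called over the whole table in the group comparison (225) were 94 with no filter, 350 with 100 reads, 12 with no variance trend, 473 in limma-voom, 483 on the authors' values and 64 to 191 without single libraries. With 2OHE2 (73) they were 307, 215, 0, 496 and 567 under those settings and 14 to 180 without single libraries.

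The following differences (log2) changed sign. With median-ratio scaling, Mmp12 was 0.012 for 4OHE1 against control and 0.027 for 4OHE1 against 2OHE1. Timp2 was 0.051 for 4OHE1 and -0.0023 for 2OHE2 against control, -0.053 for 2OHE2 against 2OHE1 and -0.053 against 4OHE1, and Mmp9 was -0.095 for 2OHE2 against 4OHE1. On the authors' values, in the same order, Mmp12 was 0.012 and 0.026, Timp2 0.032, -0.0018, -0.034 and -0.034, Mmp9 -0.049, and Mmp14 -0.056 for 2OHE2 against 4OHE1. In limma-voom, Mmp12 was 0.00025 for 4OHE1 against 2OHE1, Timp2 -0.0019 for 2OHE2 against 2OHE1 and Mmp9 -0.017 for 2OHE2 against 4OHE1. The authors' values, whose transform is not named, also gave smaller differences for some genes: Timp3 was -0.24 for 4OHE1, Timp1 -0.16 for 2OHE2 and Mmp8 0.26 for 2OHE2 against 2OHE1. With a pseudocount of 1, Timp3 was -0.79 for 4OHE1. Without single libraries, Mmp8 ran from -0.49 to 0.048 and Timp2 from -0.034 to 0.039 in the group comparison. Mmp12 ran from -0.076 to 0.023 for 2OHE1 and from -0.094 to 0.0049 for 4OHE1. Timp2 ran from -0.0195 to 0.054 for 2OHE1, from -0.065 to 0.0086 for 4OHE1 and from -0.018 to 0.055 for 2OHE2.

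The replicate numbers join different compounds and were not taken as pairs: deviations of same-numbered libraries correlated at -0.04, 0.07 and 0.04. With a replicate block, limma called 165 genes and 0 members, and Mmp13 had an adjusted p of 0.0522.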

Other observations

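Among the controls, the E2 library held the highest level of all 6 libraries for Mmp9 (18.4 RPKM), Mmp12 (235 RPKM), Timp2 (20.7 RPKM) and Timp3 (3.06 RPKM), and the lowest for Mmp19 (3.22 RPKM). E2 was not tested against EtOH.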
